A study of Mus musculus with 6 samples.

Results

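10 immediate early genes were examined in mouse liver: the AP-1 subunits Fos, Fosb, Jun and Junb, the transcription factors Egr1 and Atf3, the early response genes Ier2 and Ier3, the antiproliferative gene Btg2 and the mRNA decay factor Zfp36. They were chosen by name as classical members of the class, and make up 10 of the 49997 gene names that the data list. All 10 names were listed in each of 6 livers, 9 of them once in every mouse, among 47243 gene names that were listed once for every mouse with no failed estimate. Ier3 was listed at several copies and is described separately. Of the 9 other genes, 9 passed the filter on low values, as did 18628 genes in all.

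RNA was sequenced from the unfixed, frozen livers of 3 laboratory and 3 wild mice (*Mus musculus*). The laboratory mice were adult males of the inbred strain C57BL/6, bought from a breeder and killed by cervical dislocation on arrival. The wild mice were outbred adults trapped alive in New South Wales, 1 male and 1 female at Murrumbateman (wild 1 and wild 2) and 1 female at Yass (wild 3), then kept for months in captivity under a natural day and light cycle and killed the same way. No engineered allele or drug is described for either group. Strain, housing before death, the time since the specimens were prepared and, in part, sex differed together between the groups and cannot be told apart. The study gives an age in weeks for the laboratory mice only, so ages could not be compared. The question set by the design was how liver transcripts differ between the inbred and the wild background.

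Immediate early genes are transcribed within minutes of a stimulus, before any new protein has to be made. Kinase cascades reach factors that already sit on their promoters, such as SRF with its ETS partners and CREB, and the mRNAs are then removed quickly, in many cases through AU-rich elements in the 3′ untranslated region. In liver they are well known to respond to partial hepatectomy, to tissue dissociation and to handling and stress around the time of death.

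Expression was read as FPKM (reads per gene corrected for transcript length and sequencing depth) and as zFPKM, in which the log2 FPKM of a mouse is expressed in SD from the main mode of that mouse. Genes had zFPKM above −3 in at least 3 mice to be tested, and lower values were set to −3. The mode and SD used for zFPKM differed between mice: the mode ran from 0.491 to 2.51 on the log2 FPKM scale and the SD from 2.51 to 3.12. Median zFPKM of the tested genes was -0.746 in laboratory 3 and -0.696 in wild 1, against -0.279 to -0.167 in the other 4 mice. Relative depth, from the steps between low values, was 0.922 to 1.36 times that of laboratory 2. The tissue label held: Apoa1, an apolipoprotein of hepatocytes, had 7721 to 19565 FPKM, while the estimate of albumin failed in at least 1 mouse. In bulk liver, fewer cells of a type and less RNA per cell cannot be told apart.

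None of the 9 genes passed the test between laboratory and wild livers on the zFPKM scale (adjusted p from 0.322 to 0.989, limma with Benjamini-Hochberg adjustment over all tested genes). Of all tested genes 14.5% were called in either direction. At an unadjusted p under 0.05 the count was 0 of 9, against 25.7% of all tested genes. Differences, given throughout as laboratory minus wild, were above 0 for 3 genes (Junb, Egr1 and Ier2) and below 0 for 6, with a median of -0.10 over the 9 and 0.0049 over all tested genes. No gene had laboratory and wild zFPKM values that did not overlap, against 28.3% of all tested genes. The spread between mice of 1 group was wide, and wild 2 had the highest FPKM for 6 of the 9 genes.

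Zfp36, Ier2 and Junb were the most abundant of the 9 in every liver. Zfp36 and Ier2 held the 2 highest ranks, in an order that changed with the mouse, and Junb the 3rd in all 6. Jun took ranks 4 and 5, and Egr1 and Btg2 ranks 4 to 6, so the order of these 3 was not fixed. Fos and Atf3 exchanged ranks 7 and 8. Fosb was at rank 9 in all 6 mice.

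**Figure D1:**
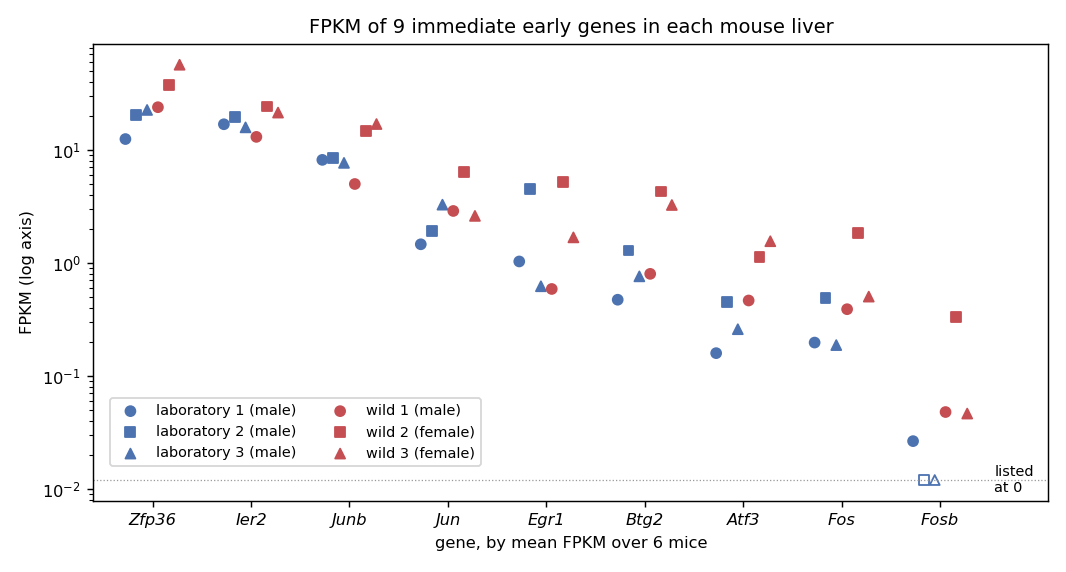
FPKM (log axis) of 9 immediate early genes, ordered by mean FPKM, with 1 point for each of 3 laboratory and 3 wild mice; open points on the dotted line are values listed at 0. Zfp36 lies between 12.5 and 56.7 and Fosb between 0 and 0.334, and wild 2 is the highest point for 6 of the 9 genes.

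Fos encodes the founding member of the FOS family, which binds DNA only as a dimer with a JUN protein. Its FPKM was 0.197, 0.494 and 0.188 in laboratory 1, 2 and 3, and 0.390, 1.85 and 0.504 in wild 1, 2 and 3. Wild 2 stood above the other 5 livers. The deposited confidence bounds, which 5 of the 6 mice have, put its lower limit at 1.48 and the highest upper limit of the others at 0.716. The remaining wild values overlapped the laboratory ones. The difference in zFPKM was -0.26 (SE 0.403, adjusted p = 0.751, limma), and the groups did not differ in log2 FPKM beyond the spread between mice (p = 0.2, exact two-sided permutation test, which with 3 against 3 cannot go below 0.1). The gene lies on chromosome 12 of GRCm38 at 85473890 to 85477274, plus strand, with 4 exons. The 250 bases before its start site are shown because they hold 2 copies of TGACG, the short form of the site that CREB and ATF factors bind, 129 and 66 bases before the start site (capitals).
Fos promoter, GRCm38.p6 chr12:85473640-85473889, plus strand: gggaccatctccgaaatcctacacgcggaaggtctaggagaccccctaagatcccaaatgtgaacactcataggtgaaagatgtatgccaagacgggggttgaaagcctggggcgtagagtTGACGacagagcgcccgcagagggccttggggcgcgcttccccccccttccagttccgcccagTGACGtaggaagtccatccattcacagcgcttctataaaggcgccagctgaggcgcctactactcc

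Fosb, a close relative of Fos, was scarcely detected in laboratory livers. It had 0.0265 FPKM in laboratory 1 and was listed at 0 in laboratory 2 and 3. Wild livers had 0.0480, 0.334 and 0.0465. All wild values lay above the laboratory values, and wild 2 was again the highest, with a lower bound of 0.214 against 0.108 for the highest upper bound elsewhere. Lower bounds reached 0 in wild 1 and wild 3, so that of the wild livers only wild 2 had Fosb above 0 beyond counting error. On zFPKM the groups overlapped, since laboratory 1 (-1.84) lay above wild 1 (-2.56) and wild 3 (-2.14), and the difference was -0.74 (SE 0.460, adjusted p = 0.322, limma). It depended on the floor, being -2.07 with a floor of −5, and on wild 2, being -0.26 without that mouse.

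Jun encodes the DNA-binding partner that also forms dimers with itself. Laboratory livers had 1.46, 1.92 and 3.28 FPKM and wild livers 2.88, 6.34 and 2.61. Wild 2 exceeded every other liver, and its lower bound of 5.80 lay above 3.75, the highest upper bound of the others. Apart from wild 2 the groups overlapped entirely, and the difference in zFPKM was -0.01 (95% interval -0.50 to 0.48, adjusted p = 0.989, limma). For this gene the SE was 0.252, and 0.249 in limma without the trend. Jun is a gene of 1 exon on chromosome 4.

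Junb encodes a JUN protein that often opposes Jun in growth control. Its values were 8.17, 8.49 and 7.68 FPKM in laboratory livers and 5.00, 14.6 and 16.9 in wild livers. The 3 laboratory livers lay within a narrow range, between wild 1 below and both wild females above. The upper bound of wild 1, 5.71, was under the lower bounds of wild 2 and wild 3, the lower of which was 13.5. The zFPKM difference was 0.12 (95% interval -0.25 to 0.48, adjusted p = 0.764, limma). This interval does not reflect the spread of Junb between mice: its SE was 0.188, and 0.295 in limma without the trend. As a ratio within a mouse, for a pair picked after its values were seen, Junb to Jun ran from 1.73 in wild 1 to 6.50 in wild 3, and laboratory ratios of 2.34 to 5.58 fell inside that range.

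Egr1 is a zinc finger factor whose promoter answers to SRF. It had 1.03, 4.49 and 0.622 FPKM in laboratory livers and 0.589, 5.22 and 1.68 in wild livers. One mouse of each group, laboratory 2 and wild 2, stood far above its companions, and the groups overlapped over almost their whole range. Its spread within groups was at percentile 98.8 of all tested genes on the log2 scale and 95.2 on zFPKM. The group difference was 0.14 (95% interval -0.45 to 0.72, adjusted p = 0.830, limma). This interval does not reflect that spread: its SE was 0.299, and 0.494 in limma without the trend. Fos was also highest of its group in laboratory 2 and in wild 2, but its laboratory 2 value was 2.63 times the lowest of its group.

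Atf3, a stress-induced repressor of the ATF/CREB family, had 0.159, 0.451 and 0.259 FPKM in laboratory livers and 0.465, 1.13 and 1.56 in wild livers. Every wild liver was above every laboratory liver, although wild 1, with bounds of 0.256 to 0.675, could not be told from laboratory 2, with 0.232 to 0.670. The exact permutation test gave p = 0.1, the smallest it can give. In zFPKM the groups overlapped, with a difference of -0.39 (SE 0.391, adjusted p = 0.591, limma).

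Ier2 is a nuclear protein induced with the AP-1 genes. In FPKM it was the least variable of the 9, with 16.9, 19.4 and 15.8 FPKM in laboratory livers and 13.1, 24.3 and 21.4 in wild livers. Wild 1 was the lowest and the wild females the highest, as for Junb. The highest value was 1.86 times the lowest. Its SD within groups on zFPKM was 0.280, above the 0.248 of Zfp36, and the zFPKM difference was 0.21 (95% interval -0.11 to 0.53, adjusted p = 0.464, limma). That interval does not reflect this SD: the SE behind it was 0.163, and 0.240 in limma without the trend.

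Btg2 belongs to the BTG/TOB family, which slows the cell cycle and recruits the deadenylation machinery to mRNAs. Laboratory livers had 0.473, 1.29 and 0.761 FPKM and wild livers 0.801, 4.29 and 3.26. Both wild females were above all other livers, and wild 1 lay among the laboratory mice. The difference in zFPKM was -0.27 (SE 0.310, adjusted p = 0.643, limma). Its promoter on chromosome 1 is shown because, among those of the 8 members with an entry in the table, it was the single one with the full CREB site TGACGTCA (capitals), which 1.55% of 32851 RefSeq promoters hold in the same window.
Btg2 promoter, GRCm38.p6 chr1:134079156-134079405, minus strand: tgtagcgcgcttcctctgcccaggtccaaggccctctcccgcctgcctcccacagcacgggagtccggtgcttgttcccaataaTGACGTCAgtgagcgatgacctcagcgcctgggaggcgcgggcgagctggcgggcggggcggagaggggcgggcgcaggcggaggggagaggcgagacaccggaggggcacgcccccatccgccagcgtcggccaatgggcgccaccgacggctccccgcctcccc

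Zfp36 (tristetraprolin) binds AU-rich elements and hastens the decay of the mRNAs that carry them, its own included. Its FPKM was 12.5, 20.3 and 22.6 in laboratory livers and 23.9, 37.2 and 56.7 in wild livers. All wild values were above the laboratory values, wild 1 by little: its bounds, 22.3 to 25.5, overlapped those of laboratory 3, 20.9 to 24.3. The exact permutation test again gave p = 0.1, and the zFPKM difference was -0.10 (95% interval -0.40 to 0.20, adjusted p = 0.745, limma). Here too the interval does not reflect the spread between mice, with an SE of 0.152, and 0.227 in limma without the trend. Zfp36 to Ier2, a pair picked in the same way, had ratios of 0.740 to 1.43 in laboratory and 1.54 to 2.65 in wild livers. That separation held on FPKM and not on zFPKM, where Zfp36 minus Ier2 was -0.14, 0.02 and 0.204 in laboratory and 0.32, 0.198 and 0.49 in wild livers, with laboratory 3 above wild 2. It is given without a test. The Zfp36 promoter on chromosome 7 is shown for its CArG box, the site of SRF, 58 bases before the start site (capitals), present in 1.47% of all promoters.
Zfp36 promoter, GRCm38.p6 chr7:28379229-28379478, minus strand: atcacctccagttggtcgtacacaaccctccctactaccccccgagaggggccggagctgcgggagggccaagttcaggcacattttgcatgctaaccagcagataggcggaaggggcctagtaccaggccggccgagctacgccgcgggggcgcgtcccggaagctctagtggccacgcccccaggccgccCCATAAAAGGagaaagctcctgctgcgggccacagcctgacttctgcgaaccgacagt

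Ier3, an early response gene that modulates cell survival, could be followed less well because its reads can be divided between its locus on chromosome 17 (35821713 to 35822911) and 2 copies on alternate sequences of the assembly. At the chromosome 17 copy, laboratory 2 and 3 had 0.214 and 0.715 FPKM, and wild 1, 2 and 3 had 0.328, 0.418 and 0.424; laboratory 1 had no entry there. The laboratory values lay on both sides of the wild ones (exact permutation p = 1). At the copy listed in all 6 mice the values were 0.267, 0.0534 and 0.367 in laboratory and 0.0468, 0.261 and 0.0831 in wild livers, which overlap (exact permutation p = 0.5). At that copy the upper bound was about 3 times the FPKM in laboratory 2 and wild 1, as for about 1 read. All values of Ier3 are therefore uncertain.

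Sequences shared by the genes were set beside these levels. TGACG, on either strand and including the full site TGACGTCA, was in the 250-base promoters of 5 of the 8 members with an entry (Fos, Fosb, Atf3, Btg2 and Junb), against 17.8% of all promoters in the table. A CArG box was found in 1 of 8 against 1.47%, and the AP-1 site TGACTCA in 0 of 8 against 4.46%. Egr1 and Ier2 had no promoter entry. Only exact letters within 250 bases were searched, so a missing match does not show that a gene lacks such a site. GGGCGG, bound by SP1, was in 7 of 8 against 32.7%, and all 8 promoters had a GC content above the median of 52.4%. In the 3′ untranslated regions of GENCODE, 9 of the 10 genes had the pentamer ATTTA, against 61.8% of 20966 genes, and 7 had TATTTAT, against 25.5%. Ier2 had neither, in 755 bases. Per 1000 bases the members had a median of 2.89 pentamers and all genes 1.14, with Ier3 at 8.16, Fos at 4.91 and Junb at 4.12. These counts describe letters and do not show that a site is bound. The window of 30 bases with the most pentamers around a TATTTAT is printed for 4 genes, to show how the elements are arranged, with each ATTTA in capitals (GRCm38).
Fos site, chr12:85477103-85477132, plus strand: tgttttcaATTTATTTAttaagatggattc
Ier3 site, chr17:35822481-35822510, plus strand: tgtctaattaatATTTAtgtATTTAtgtat
Btg2 site, chr1:134077248-134077277, minus strand: aaatgaagagctATTTAtacatgttttttt
Zfp36 site, chr7:28376965-28376994, minus strand: agtgggccctttATTTAtgacgactttatt

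Most of the genes, though not all, shared the highest liver and the lowest wild liver. Wild 2 was the highest of 6 for 6 of 9 genes (Fos, Fosb, Jun, Egr1, Ier2 and Btg2), against 18.1% of all tested genes, and wild 3 for the other 3 (Junb, Atf3 and Zfp36). In wild 2, the lower bound was above the bounds of all other mice that have them for 4 genes: Fos, Fosb, Jun and Btg2. Wild 1, the male, was the lowest of the wild mice for 7 of 9, against 42.6% of all tested genes. Its upper bound was under both wild females' lower bounds for 6. Shares of all tested genes were not computed for the counts by bounds or for wild 3. These counts are therefore not read as particular to the 9. The mean zFPKM of the 9, centred on each gene's mean, was 0.56 in wild 2 and 0.16 in wild 3, and -0.50 in wild 1. Among laboratory mice it was 0.10 and 0.17 in laboratory 1 and 2 and -0.49 in laboratory 3. Laboratory 3 and wild 1 are also the 2 mice whose median zFPKM over all tested genes was low, with centred medians of -0.31 and -0.26. Wild 2, where the mean of the 9 was highest, also had the highest centred median over all tested genes, 0.20. The part of the scaling in the values of these mice was not tested.

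**Figure D2:**
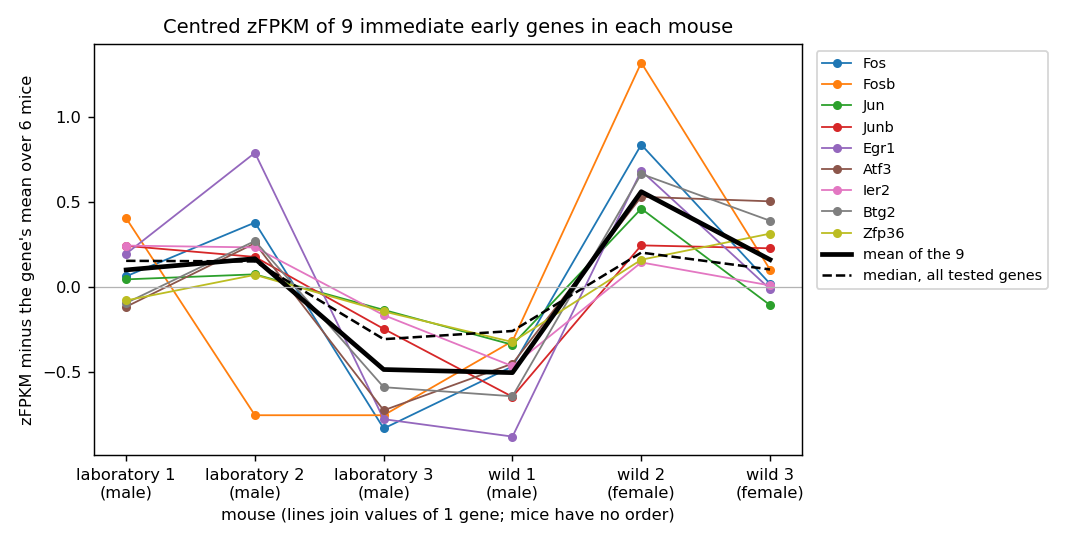
zFPKM of each of 9 genes minus its mean over the 6 mice (vertical axis) by mouse; thick line, mean of the 9; dashed line, median of all tested genes. The mean is 0.56 in wild 2 and -0.50 in wild 1, and the dashed line runs from -0.31 in laboratory 3 to 0.20 in wild 2.

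Spread between mice of 1 group was above the median of all tested genes for 9 of 9 on the log2 scale, with a median SD of 0.674 against 0.338. On zFPKM it was above for 6 of 9, with 0.528 against 0.306. The wild group holds both sexes and both trapping sites, so its spread includes any difference between these. Over all 6 mice, laboratory and wild together, the highest FPKM was 9.84 times the lowest for Fos, 9.78 for Atf3, 9.08 for Btg2 and 8.87 for Egr1. It was 4.54 for Zfp36, 4.34 for Jun and 3.39 for Junb. Fosb has no such ratio over all mice, since it was listed at 0. Within the laboratory and the wild group the ratio was 2.63 and 4.74 for Fos and 2.83 and 3.34 for Atf3. For Btg2 it was 2.73 and 5.36, and for Egr1 7.22 and 8.87.

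On the FPKM scale the picture was one-sided. The laboratory mean was below the wild mean for all 9 genes, against 68.4% of all tested genes. It ran from 0.276 times the wild mean for Atf3 to 0.888 times for Ier2 among the 8 that were above 0 in every mouse. For 3 genes (Fosb, Atf3 and Zfp36) every laboratory liver was below every wild liver, against 43.7% of all tested genes. On log2(FPKM + 0.1), 2 genes were lower in laboratory livers: Atf3 by -1.50 (SE 0.495, adjusted p = 0.0411, limma) and Zfp36 by -1.04 (SE 0.347, adjusted p = 0.0419). On this scale 38.0% of all tested genes were called lower in laboratory mice, and the median difference of all tested genes was -0.47. The 9 genes had a median of -0.96, and 6 of them were below the median of all genes. Once every mouse was centred on a median of 0 on this scale, 0 of 9 were called, against 47.3% of all tested genes in either direction, and 3 were higher in laboratory livers, with 1 at an unadjusted p under 0.05. The 2 of 9 called without this centring are no larger a share than that of all genes. Junb, Egr1 and Ier2 were higher in laboratory livers on zFPKM and lower on log2(FPKM + 0.1) and log2(FPKM + 1), Jun was near 0 on zFPKM, and Fos, Fosb, Atf3, Btg2 and Zfp36 were lower in laboratory livers on every scale tried with all 6 mice and no sex term.

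**Figure D3:**
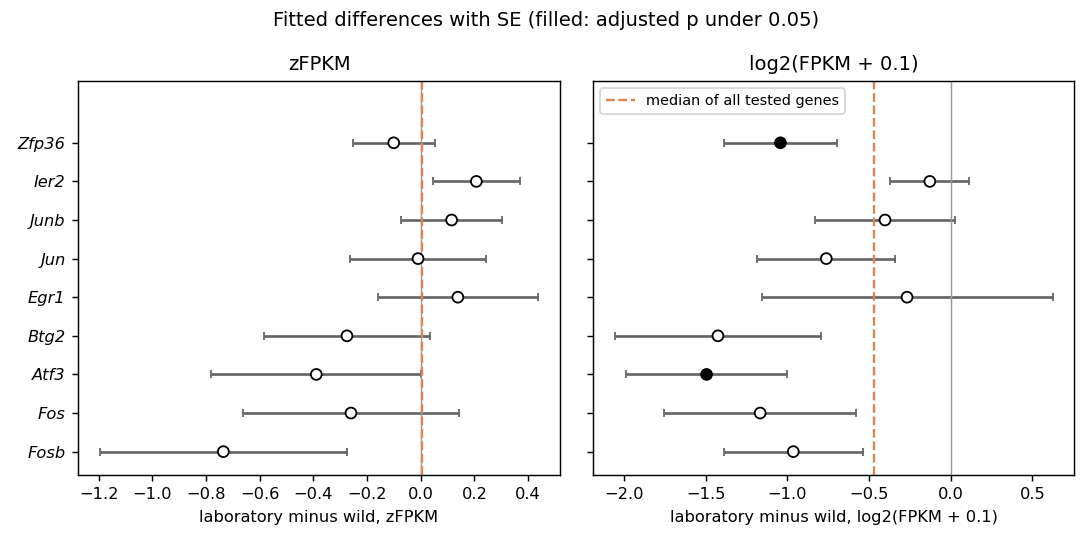
Fitted difference, laboratory minus wild, of 9 genes with its SE on zFPKM (left) and on log2(FPKM + 0.1) (right); filled points passed an adjusted p of 0.05 and the dashed line is the median of all tested genes. No point is filled on the left, Atf3 and Zfp36 are on the right, and the dashed line moves from 0.0049 to -0.47.

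Sex moved with the group. With sex as a covariate the differences in zFPKM were above 0 for 8 of 9 genes, against 71.1% of all tested genes, and 0 of 9 were called, against 7.37%. The differences were the same with the 3 laboratory males set against the single wild male, a comparison in which 0 of 18628 genes could be called. In the fit with sex, Junb (0.70, adjusted p = 0.0821, limma) and Ier2 (0.57, adjusted p = 0.112) had an unadjusted p under 0.05, and only Fosb stayed below 0 (-0.05). Over all tested genes the median difference was 0.27 in the same fit. Both females were wild, so the sex term rests on the wild mice alone.

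Markers of other liver cells also varied between mice. The summed FPKM of 8 Kupffer cell markers was 52.7 to 80.0 in laboratory livers and 24.2, 83.6 and 191 in wild 1, 2 and 3. For 8 sinusoidal endothelial markers it was 21.5 to 33.3 in laboratory and 18.1, 62.8 and 34.4 in wild livers. Wild 1, where 7 of the 9 genes were lowest of the wild mice, was lowest for both lists, wild 2 was highest for the endothelial list, and wild 3 for the Kupffer list. None of these 16 genes was called, against 14.5% of all tested genes. Neutrophil markers summed to 8.96 to 15.1 in laboratory and 2.38 to 3.63 in wild livers, with 2 of 6 tested higher in laboratory mice and the defining marker Ly6g listed at 0 in all 6. Lymphocyte markers gave 5.75 to 6.79 against 2.23 to 6.78. Stellate cell markers gave 32.6 to 49.1 against 84.2 to 147, and biliary markers 29.7 to 64.6 against 12.2 to 27.6. The biliary sum was carried by Spp1 (44.0 against 16.6 mean FPKM), and the mean zFPKM of that list overlapped between the groups. The stellate sum was carried by Dcn (26.5 against 84.0 mean FPKM), while Col1a1 was called higher and Rgs5 lower in laboratory livers. Both calls were lost without wild 3 and in limma without the trend (adjusted p = 0.191 and 0.159). Leaving out laboratory 1, laboratory 2 or wild 1 also ended the Col1a1 call. That of Rgs5 was also lost without laboratory 3 or wild 2 and with sex as a covariate. The sum of 6 hepatocyte markers was 29301 to 40624 against 20619 to 22095, and its members went both ways, with Apoa1, Ttr and Serpina1c higher and Cyp2e1 and Tat lower in laboratory livers. The part of these cells in the values of the immediate early genes was not tested.

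**Figure D4:**
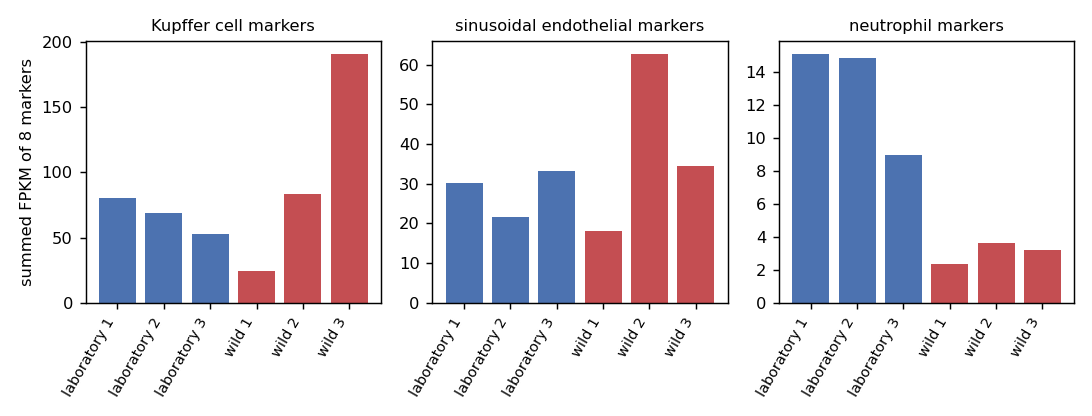
Summed FPKM of 8 marker genes each of Kupffer cells, sinusoidal endothelium and neutrophils (bars from 0, 1 per mouse; blue laboratory, red wild). Wild 1 has the shortest bar of the Kupffer (24.2) and endothelial (18.1) lists, and all laboratory bars of the neutrophil list exceed the wild ones.

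Other immediate early genes, from 2 lists fixed by name, were compared in the same way. Over all tested genes 14.5% were called on zFPKM, and 25.7% had an unadjusted p under 0.05. Of 20 other immediate early transcription factors 18 were listed and 15 tested, and 0 were called on zFPKM, with 1 at an unadjusted p under 0.05. Egr4 and Fosl1, neighbours of the members by family, were listed at 0 in all mice. Irf1, the most abundant of the list, had 8.60 to 11.5 FPKM in laboratory and 11.5 to 33.1 in wild livers. Of 28 genes for signalling and secreted products 26 were tested, of which 1 was higher and 3 were lower in laboratory mice. Dusp6, a MAP kinase phosphatase, was lower, with 0.742 to 1.45 against 12.6 to 23.4 FPKM and a zFPKM difference of -1.10 (SE 0.228, adjusted p = 4.48e-05, limma). Tob1, of the same family as Btg2, differed by -0.47 and Zfp36l1, a relative of Zfp36, by -0.40 (adjusted p = 0.0255 and 0.0342). Gadd45g, a growth arrest gene, was higher by 0.80 (adjusted p = 0.00198). Of these 4 calls 0 were left in limma without the trend, where Dusp6 had an adjusted p of 0.0607, and 1 with sex as a covariate (Gadd45g). On log2(FPKM + 0.1) the list held 14 calls, on a scale where 46.2% of all tested genes were called.

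Genes that drive the members or act with them showed a few calls in both directions. The share called over all tested genes was 14.5%, and no set test was run on these short lists. Of 28 upstream kinases and factors tested, Egfr, a growth factor receptor, was higher (0.74) and Atf1, a factor of the CREB family, was lower (-0.68) in laboratory livers. Atf1 had 1.87 to 2.12 FPKM in laboratory and 11.9 to 13.7 in wild livers, while Map2k2, the most abundant, did not pass the test (0.04, adjusted p = 0.910, limma). Both calls were lost without the trend (adjusted p = 0.103 and 0.148, limma) and with sex as a covariate. Of 11 AP-1 partners and EGR corepressors 1 was called, the corepressor Nab1 (-0.54), and Atf4, the most abundant, was not. Among 10 genes of the integrated stress response, which induces Atf3, Asns (1.41) and Nupr1 (1.22) were higher and Vldlr (-1.95) was lower, and Atf5, the most abundant, differed by -0.18 (adjusted p = 0.326, limma). Of 7 tested mRNAs that Zfp36 is known to bind, Il23a was called (1.64), but it had 0.123 to 0.177 FPKM in laboratory livers and was listed at 0 in all wild livers, so that it passed the filter through the laboratory mice alone and its difference was set by the floor. Cxcl1 had 1.26 to 2.74 against 0.609 to 4.19 FPKM. Of 10 p53 targets, a class to which Btg2 belongs, Bax was higher (0.42) and Trp53inp1 lower (-0.60). The calls of Nab1, Bax and Trp53inp1 were also lost without the trend, and those of Asns, Nupr1 and Vldlr were not. With sex as a covariate the calls of Nab1 and Trp53inp1 were lost (adjusted p = 0.401 and 0.639, limma). Those of Bax, Asns, Nupr1 and Vldlr were kept in that fit. Of the called genes named from these lists, Il23a aside, Dusp6, Egfr, Nupr1 and Vldlr passed with each mouse left out in turn. The others did not: the calls of Tob1, Zfp36l1, Atf1, Nab1, Asns, Bax and Trp53inp1 were lost without wild 3 and that of Gadd45g without laboratory 2 or wild 1, and each of the other 3 mice, left out, also ended at least 1 of them.

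**Figure D5:**
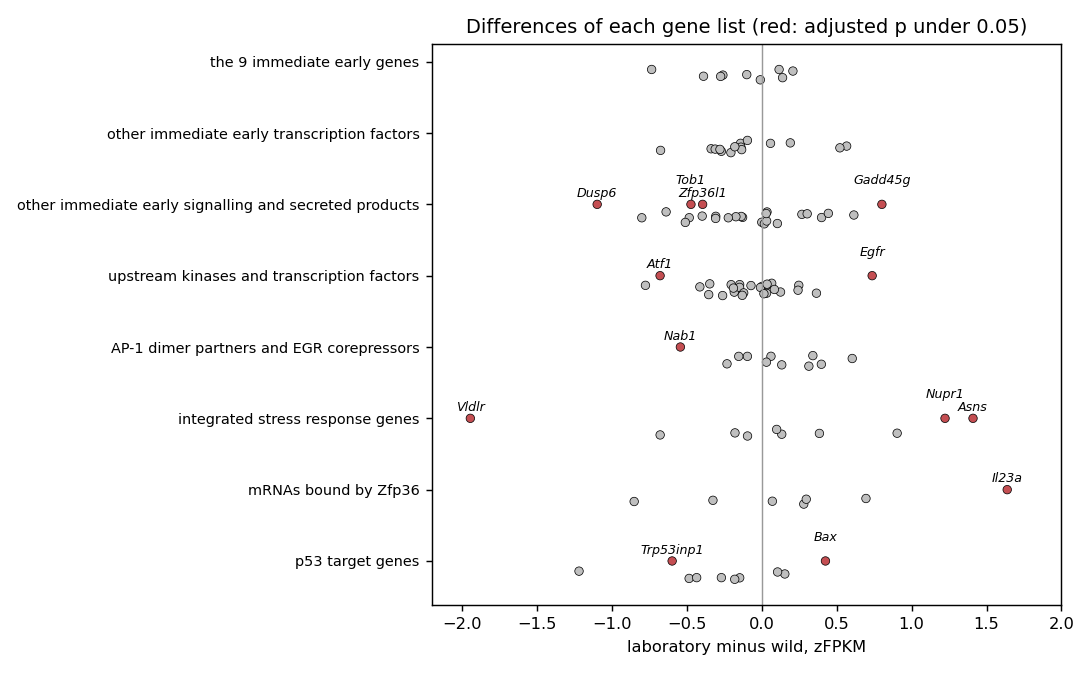
Difference in zFPKM, laboratory minus wild, of each tested gene in 8 lists (1 point per gene; vertical scatter within a list has no meaning). The 9 immediate early genes lie between -0.74 and 0.21 with no red point, and the called genes of the other lists are named.

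The genes whose profile over the 6 mice was most like the mean profile of the 9 were Anxa1, Klhl13, A330035P11Rik, Klf6 and Fut8, at a root mean square distance of 0.038 to 0.058 zFPKM. The members themselves lay 0.154 (Btg2) to 0.520 (Fosb) from that mean. Klf6, itself an immediate early factor, had 0.783, 1.02 and 1.13 FPKM in laboratory and 1.04, 3.54 and 2.63 in wild livers. Anxa1, an annexin, had 1.51 to 2.69 in laboratory and 2.15 to 7.20 in wild livers. Both had their highest value in wild 2 and overlapping groups, and neither passed the test on zFPKM (adjusted p = 0.831 and 0.822, limma). Likeness was measured over 6 mice among 18628 genes.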

How the data were processed

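Liver RNA of 3 laboratory and 3 wild mice was sequenced from stranded mRNA libraries as single reads. The authors aligned reads to the masked GRCm38.p6 assembly with RefSeq annotation and deposited FPKM values from the Tuxedo tools. The deposited zFPKM values are a score computed by the authors from log2 FPKM of each mouse. Picard is also named in the submitters' processing notes. No counts or total reads were used, so the count test of the study could not be run and depth is known only as the relative value given. Laboratory 1 has no confidence bounds. Names with a failed estimate (13) and names listed more than once were left out. Starts in the files count from 0, and 1 was added.

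zFPKM was floored at −3 and genes above −3 in at least 3 of 6 mice were fitted with limma 3.58.1 (R 4.3.3; lmFit and eBayes with trend), laboratory minus wild, with Benjamini-Hochberg adjustment over 18628 genes. In this fit the prior took all the weight, so each SE comes from the trend of spread on level and not from the gene's own spread; without the trend there were 7.74 degrees of freedom. FPKM was compared by exact two-sided permutation of log2 values (a pseudocount of 0.1 for Fosb) in scipy 1.17.1. The fitting script was tested on simulated data. Each mouse is a separate animal and was counted as 1 replicate. The members and lists were chosen with earlier results of these data known. A gene of the upstream list is not reported here, and the counts leave it out. Genes named outside the members are, for each list, up to 3 called genes with the largest difference and the most abundant gene, and the 5 nearest profiles. Promoters are from RefSeq (GRCm38.p6) and 3′ untranslated regions from GENCODE vM21 on the same build, 1 transcript per gene with the longest coding part.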

Additional observations from a re-analysis of the deposited data

How the results depend on the processing

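No paired analysis applied, because the laboratory and wild livers came from different animals. Members past the threshold numbered 1 on log2(FPKM + 1) (Atf3) and 2 on log2(FPKM + 0.1), where 44.3% and 46.2% of all tested genes were called, and 0 under the others. Those 0 say little with males only (0 of all genes called), with no filter (0.0487%) or without the trend (4.27%); with quantile normalization 39.1% of all genes were called and without 1 mouse 7.63% to 13.7%. On log2(FPKM + 1) and log2(FPKM + 0.1) the differences turned below 0 for Junb (-0.38 and -0.40), Egr1 (-0.18 and -0.27) and Ier2 (-0.12 and -0.13). With sex as a covariate and with males only, they turned above 0 for Fos (0.34), Jun (0.33), Atf3 (0.26), Btg2 (0.50) and Zfp36 (0.27); Jun did so also with quantile normalization (0.036) and with a median of 0 (0.024). Leaving out 1 mouse gave ranges of -0.56 to 0.094 (Fos), -0.18 to 0.22 (Jun), -0.18 to 0.27 (Junb), -0.27 to 0.56 (Egr1), -0.29 to 0.031 (Zfp36), -1.12 to -0.26 (Fosb), -0.71 to -0.12 (Atf3), -0.66 to -0.011 (Btg2) and 0.027 to 0.34 (Ier2), with the sign changed without laboratory 3 or wild 2 for Fos and Jun, wild 1 for Junb, laboratory 2 or wild 1 for Egr1 and wild 3 for Zfp36. None of the 26 values that turned was called, of 152. With males only, 5 of 9 laboratory means were lower in FPKM and 6 genes did not overlap, against 61.4% and 76.6% of all tested genes. With 1 mouse left out, 7 to 9 laboratory means were lower, against 65.5% to 71.5% of all tested genes. In the same subsets 3 to 7 genes did not overlap, with 7 without wild 1 and 5 without laboratory 2. The share of all tested genes not overlapping was 60.4% to 64.8%. The pathway lists held 13 called genes, and 8 with a floor of −5, 0 with no filter, 39 with quantile normalization, 30 with a median of 0, 52 on either log2 scale, 38 on log2(FPKM + 0.1) with a median of 0 (chosen after seeing the data), 4 without the trend, 7 with sex, 0 with males only and 5 to 16 without 1 mouse (8 without laboratory 1, laboratory 2 or wild 2 and 5 without wild 3). Of 7 marker lists, 4 did not overlap by summed FPKM and 1 by mean zFPKM. Over all genes, 2692 were called (14.5% of those tested). Of these calls 50.4% were lower in laboratory mice, against 83.2% on log2(FPKM + 1), 82.3% on log2(FPKM + 0.1) and 18.2% with sex. The cause of these shifts was not tested. Groups of 3 limit what can be called, and 3 against 3 cannot give an exact p under 0.1.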
